A study of Mus musculus with 12 samples.

Results

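Contacts that lie outside the regulatory domain of Shh were examined in a 5C study of mouse chromosome 5: contacts within the flank on the Shh side, contacts within the flank on the Lmbr1 side, and contacts that join one flank to the other across the domain. A member is a pair of HindIII fragments with both midpoints outside the domain, more than 50 kb apart and above 0 in any library. The members were chosen by position and not by level. There were 4970 of them among 28980 fragment pairs above 0: 1357 within the Shh-side flank, 772 within the Lmbr1-side flank and 2841 between the flanks.

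In 5C, crosslinked chromatin is cut with a restriction enzyme and religated, and oligonucleotides that anneal to the ends of fragments are joined where a ligation product brings them together. Each read then counts a junction of 2 named fragments. NPC are neural progenitor cells made from 46c embryonic stem cells in N2B27 medium over 7 days. tSBE6-Vp64, tSBE2-Vp64 and tSBE(6+2-Vp64) are 46c embryonic stem cells transfected with an activator aimed at the Shh enhancer SBE6, at the enhancer SBE2 or, going by the name, at both, where t is read as a designed TALE DNA-binding protein and Vp64 as its activation domain. ESC are untransfected 46c cells and served as the comparator of every group. 46c is a single mouse line that carries a GFP reporter at Sox1, a gene of neural progenitors, and no group with a protein lacking the activator was analysed here. The labels do not say which part of the transfected cells took up the construct. The assay holds no transcript levels, so the cell type labels could not be set against marker genes.

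The Shh domain is a topologically associating domain, a stretch of chromatin whose sequences touch each other more than they touch their neighbours. It runs from Shh, which encodes a secreted signal of the neural tube and the limb, across a gene desert of enhancers to the Lmbr1 promoter. Contacts between sequences on either side of such a domain are normally infrequent, because they span its whole length and cross both of its boundaries. Flank contacts describe the chromatin around the domain, while the activators were aimed at enhancers of Shh and not at the flanks.

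The Shh-side flank held 84 fragments from 28317087 to 28780563 (mm9 coordinates throughout) with a median length of 2894 bases. The protein-coding genes there are, in order towards Shh, Insig1, En2, Cnpy1 and Rbm33. The Lmbr1-side flank held 68 fragments from 29720155 to 30005000 with Nom1, Mnx1 and Ube3c beyond Lmbr1. The gene order is that of RefSeq. Exons and introns were not assigned, since an mm9 annotation was not used here. Contact distances ran from 50.1 to 447 kb within the Shh-side flank, from 50.4 to 275 kb within the Lmbr1-side flank and from 953 to 1681 kb between the flanks. The fragments fell into 2 sets of 176 and 165, and every pair above 0 joined the sets. Of 9986 possible flank pairs over 50 kb, 4978 joined opposite sets, and 4970 of these were above 0 in some library, against 0 of the pairs within a set. Oligonucleotides of alternating orientation give such a pattern, and the members are thus nearly all the flank contacts that this design could read.

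The 12 files held 11 distinct libraries and 8 biological replicates: 2 of NPC, 1 of tSBE6-Vp64, 1 of tSBE2-Vp64, 2 of tSBE(6+2-Vp64) and 2 of ESC. One NPC file, labelled replicate 2 and technical replicate 2, repeated that of replicate 1 and technical replicate 1 to within 4.02e-08. The labels thus place the same values in both NPC replicates. They were counted once, in NPC replicate 1. NPC replicate 2 then rests on 1 library, with 1.87 M reads by the estimate that follows. Depth implied by the smallest step of the values was 0.978 to 43.2 M reads in NPC, 44.2 in tSBE6-Vp64, 48.2 in tSBE2-Vp64, 9.25 to 38.4 in tSBE(6+2-Vp64) and 22.0 and 20.7 in ESC, an estimate, since no read counts are given to set it against. The share of members above 0 was 55.9% to 73.1% in NPC, 89.4% in tSBE6-Vp64, 81.0% in tSBE2-Vp64, 32.9% to 99.6% in tSBE(6+2-Vp64), and 85.9% and 49.0% in ESC. The ESC replicates thus differed widely at nearly equal implied depth. One tSBE(6+2-Vp64) library, of replicate 1 and technical replicate 1, stood apart: pairs up to 50 kb apart held 17.1% of its signal, against 40.2% to 69.8% in the other 3 libraries of that group. The labels do not state that replicates were separate cultures, so each p measures the spread between these samples. tSBE6-Vp64 and tSBE2-Vp64 hold 1 replicate each and show no spread of their own. In the limma fits below, their SE and p rest on the spread within the other groups. No molecular identifiers mark 5C reads, so depth bounds counting error only. A 5C value is a mean over all cells of a dish: a contact in fewer cells and a rarer contact in each cell cannot be told apart.

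Members agreed little between libraries, and least between the flanks. Over the 2841 pairs between the flanks, which share libraries and fragments, Spearman's rho was 0.19 between the ESC replicates and 0.30 to 0.32 between libraries of different NPC replicates. It was 0.91 between the technical replicates of NPC replicate 1, and 0.36 and 0.20 within the replicates of tSBE(6+2-Vp64). Between libraries of different groups it was 0.13 to 0.54 with a median of 0.26. Within the flanks rho was higher, with medians across groups of 0.45 on the Shh side and 0.42 on the Lmbr1 side.

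As a share of library signal, contacts that joined the flanks were higher in NPC, tSBE2-Vp64 and tSBE(6+2-Vp64) than in either ESC replicate. Each library was scaled to 1000 over all fragment pairs, and a share is the percent of that total. Contacts between the flanks held 4.57% and 3.35% of the signal in NPC, 2.09% in tSBE6-Vp64, 4.37% in tSBE2-Vp64, 4.79% and 3.38% in tSBE(6+2-Vp64), and 2.11% and 2.21% in ESC. The NPC mean was 3.96% ± 0.86 and the tSBE(6+2-Vp64) mean 4.08% ± 1.00, against 2.16% ± 0.07 in ESC (SD, n = 2 each). The difference was 1.80 percentage points in NPC, 1.92 in tSBE(6+2-Vp64) and 2.21 in tSBE2-Vp64, each with an exact two-sided permutation p of 0.333, the smallest that 2 or 1 replicates against 2 can give. In tSBE6-Vp64 the difference was -0.07 points (exact permutation p = 0.667). The single tSBE(6+2-Vp64) libraries held 1.65% to 5.97% between the flanks, so 1 of the 4 lay below ESC. Without the library that stands apart the tSBE(6+2-Vp64) difference was 1.33 points between the flanks, -0.29 in the Shh-side flank and -0.53 in the Lmbr1-side flank. Pairs up to 50 kb apart held 23.6% to 31.0% of the signal in NPC libraries, 56.8% in tSBE6-Vp64 and 36.6% in tSBE2-Vp64. They held 17.1% to 69.8% in tSBE(6+2-Vp64), and 62.7% and 59.4% in ESC. Contacts joining a flank to the domain differed from ESC by 12.9 (Shh side) and 13.7 points (Lmbr1 side) in NPC and 9.57 and 9.31 in tSBE2-Vp64. In tSBE(6+2-Vp64) these were 6.70 and 3.78, and in tSBE6-Vp64 -0.19 and -1.97. The part of this in the shares was not tested. As a percent of the signal over 50 kb alone, the NPC replicates (6.15% and 4.86%) lay on both sides of the ESC replicates (5.66% and 5.44%), while tSBE(6+2-Vp64) had 7.28% and 7.50%.

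Within the Lmbr1-side flank, NPC were lower. This class held 1.30% and 1.39% in NPC, 2.71% in tSBE6-Vp64, 1.82% in tSBE2-Vp64, 3.47% and 1.46% in tSBE(6+2-Vp64), and 2.77% and 1.56% in ESC. Both NPC replicates lay below both ESC replicates, by 0.82 points on average (exact permutation p = 0.333), or by 0.21 without ESC replicate 1 and 1.42 without ESC replicate 2, and the other groups lay within or across the ESC range. Without the pairs that hold over 0.5% of a library and with libraries rescaled, the NPC difference was 0.08 points.

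Within the Shh-side flank the shares were 4.85% and 5.43% in NPC, 5.02% in tSBE6-Vp64, 4.71% in tSBE2-Vp64, 5.16% and 3.12% in tSBE(6+2-Vp64), and 3.92% and 3.08% in ESC. NPC thus lay 1.64 points above ESC (exact permutation p = 0.333). That direction rested on a single contact. Without the highest pair of the class the NPC replicates held 1.75% and 2.09% and tSBE2-Vp64 2.30%, all below the ESC values of 3.90% and 2.50%, while tSBE6-Vp64 kept 4.68%. Between the flanks, without the highest pair, NPC, tSBE2-Vp64 and tSBE(6+2-Vp64) were still above both ESC replicates and tSBE6-Vp64 lay between them: 3.13% and 2.55% in NPC, 1.99% in tSBE6-Vp64, 3.26% in tSBE2-Vp64, 4.42% and 2.19% in tSBE(6+2-Vp64), and 2.11% and 1.86% in ESC.

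**Figure D1:**
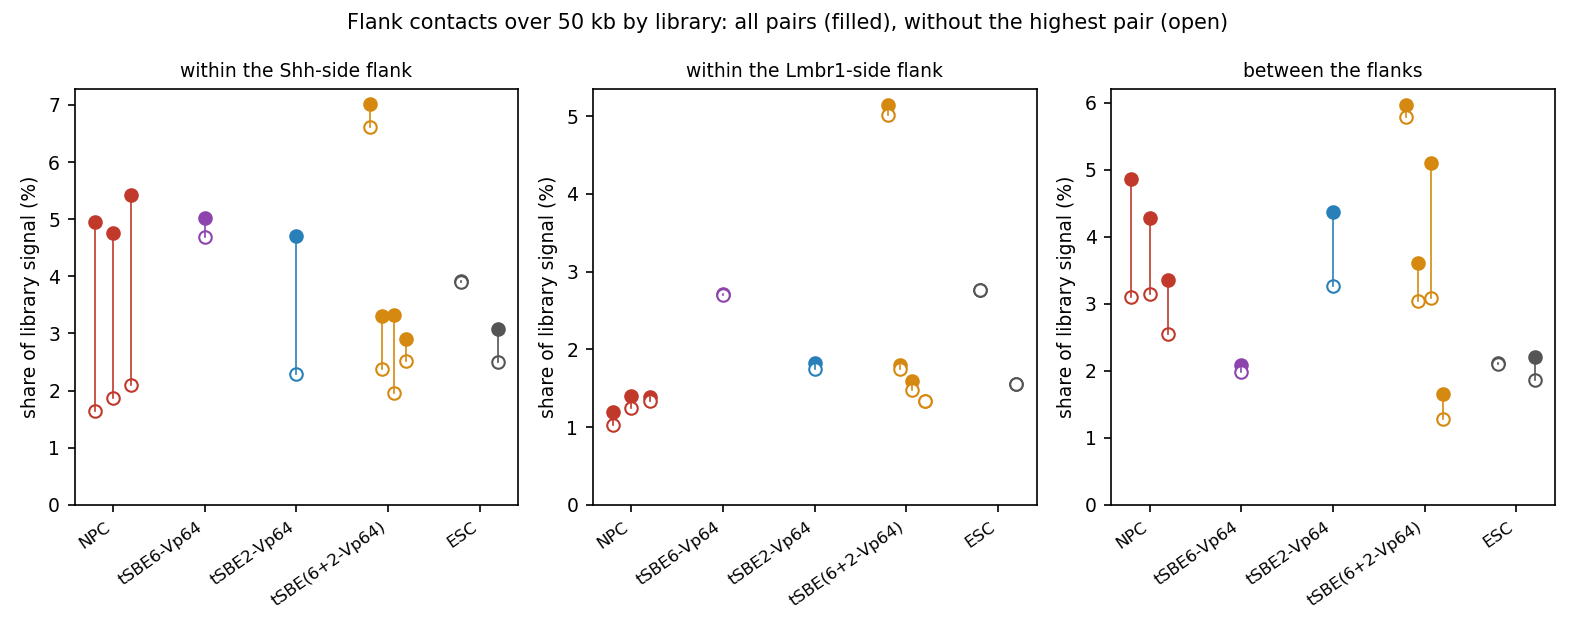
Share of library signal (percent, vertical axis) in the 3 classes of flank contacts over 50 kb, by library and group; filled points hold all pairs, open points leave out the highest pair of the class, and a line joins the 2 values of a library. In the Shh-side flank the 3 NPC libraries sit above ESC with the highest pair and below both ESC libraries without it.

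The contact behind this was Shh_13 (28347366 to 28348911) with Shh_81 (28581219 to 28585322), 235 kb apart near the outer edge of the captured region. Its signal was 33.1, 28.9 and 33.4 per 1000 in the 3 NPC libraries, 3.38 in tSBE6-Vp64, 24.2 in tSBE2-Vp64, 4.05, 9.28, 13.7 and 3.92 in tSBE(6+2-Vp64), and 0.18 and 5.79 in ESC. NPC libraries were all above the rest, and tSBE2-Vp64 came next. This 1 pair of 1357 made up 60.7% to 66.9% of the class in NPC and 51.3% in tSBE2-Vp64, against 0.47% and 18.8% in ESC. In NPC replicate 2, where it was highest, it was 906-fold above the mean of the 23 member pairs within 3 fragments of it. On the log2 scale it was 4.97 higher in NPC (SE 1.18), 4.56 higher in tSBE2-Vp64 (SE 1.45) and 2.90 higher in tSBE(6+2-Vp64) (SE 1.18) than in ESC, with limma adjusted p of 0.512, 0.986 and 1. It passed in none of them, and the ESC replicates themselves lay far apart. Without ESC replicate 2 it passed in NPC (log2 7.46, limma adjusted p = 0.0034), tSBE2-Vp64 (log2 7.05, limma adjusted p = 0.0088) and tSBE(6+2-Vp64) (log2 5.39, limma adjusted p = 0.016), with a single ESC replicate assumed to vary like the other groups. Without ESC replicate 1 the NPC difference was 2.47.

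In its 66 other member pairs Shh_13 averaged 0.0158 and 0.0170 per pair in NPC and 0.0115 and 0.0104 in ESC. Shh_81 averaged 0.0078 and 0.0124 in NPC over 68 other pairs, against 0.0234 and 0.0174 in ESC. The highest of these other values in any replicate was 0.569, for Shh_13 with Shh_84 in tSBE(6+2-Vp64) replicate 2.

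Between the flanks, Shh_128 (28723250 to 28724961) with Shh_494 (29815594 to 29816516), 1092 kb apart, led the class. It had 17.6, 11.2 and 7.98 per 1000 in the NPC libraries, 1.03 in tSBE6-Vp64, 11.1 in tSBE2-Vp64, 1.83, 5.68, 20.1 and 3.64 in tSBE(6+2-Vp64), and 0.046 and 3.54 in ESC. The tSBE(6+2-Vp64) libraries lay on both sides of ESC replicate 2, and the highest of them exceeded every NPC library. Shh_32 (28428927 to 28447705) with Shh_477 (29768741 to 29769326), 1331 kb apart, had 6.40, 5.50 and 3.75 in NPC, 0.22 in tSBE6-Vp64, 4.03 in tSBE2-Vp64, 0.93, 1.41, 4.19 and 0.78 in tSBE(6+2-Vp64), and 0.0053 and 0.67 in ESC. All 3 NPC libraries and tSBE2-Vp64 lay above both ESC libraries, and tSBE6-Vp64 lay between them. Without ESC replicate 2 this pair passed in NPC (log2 9.78, limma adjusted p = 0.048). Shh_45 (28484053 to 28486216) with Shh_549 (29978716 to 29979319) spanned 1494 kb, nearly the whole captured region. It had 1.55, 1.68 and 1.31 in NPC, 0.33 in tSBE6-Vp64, 2.80 in tSBE2-Vp64, 0.31, 1.86, 1.58 and 0.11 in tSBE(6+2-Vp64), and 0.030 and 0.15 in ESC.

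In the Lmbr1-side flank the highest pair was Shh_493 (29809880 to 29815593) with Shh_555 (30001399 to 30005000), the last fragment of the region. Its values were 1.58, 1.53 and 0.55 in NPC, 0.12 in tSBE6-Vp64, 0.77 in tSBE2-Vp64, 1.33, 0.47, 1.13 and 0 in tSBE(6+2-Vp64), and 0.021 and 0 in ESC. It was thus at 0 in 1 library of tSBE(6+2-Vp64) and 1 of ESC. Shh_493 lies next to Shh_494, the fragment that led the contacts between the flanks. Shh_466 (29727115 to 29730837) with Shh_544 (29963693 to 29963925) followed, with 0.67, 0.80 and 0.83 in NPC, 0.046 in tSBE6-Vp64, 0.36 in tSBE2-Vp64, 0.20, 0.22, 0.29 and 0.090 in tSBE(6+2-Vp64), and 0.018 and 0.11 in ESC. Shh_482 with Shh_510 was 0.14 to 0.28 in NPC, 0.11 in tSBE6-Vp64, 0.47 in tSBE2-Vp64, 0.17 to 0.77 in tSBE(6+2-Vp64), and 0.091 and 0.20 in ESC, and its NPC and ESC values overlapped. The other 2 pairs of the Shh-side flank, Shh_18 with Shh_83 and Shh_13 with Shh_84, reached at most 0.66 in NPC, 0.036 in tSBE6-Vp64, 0.45 in tSBE2-Vp64, 0.98 in tSBE(6+2-Vp64) and 0.28 in ESC. Shh_81, Shh_83 and Shh_84 lie close together, so these pairs share a fragment or lie near each other.

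**Figure D2:**
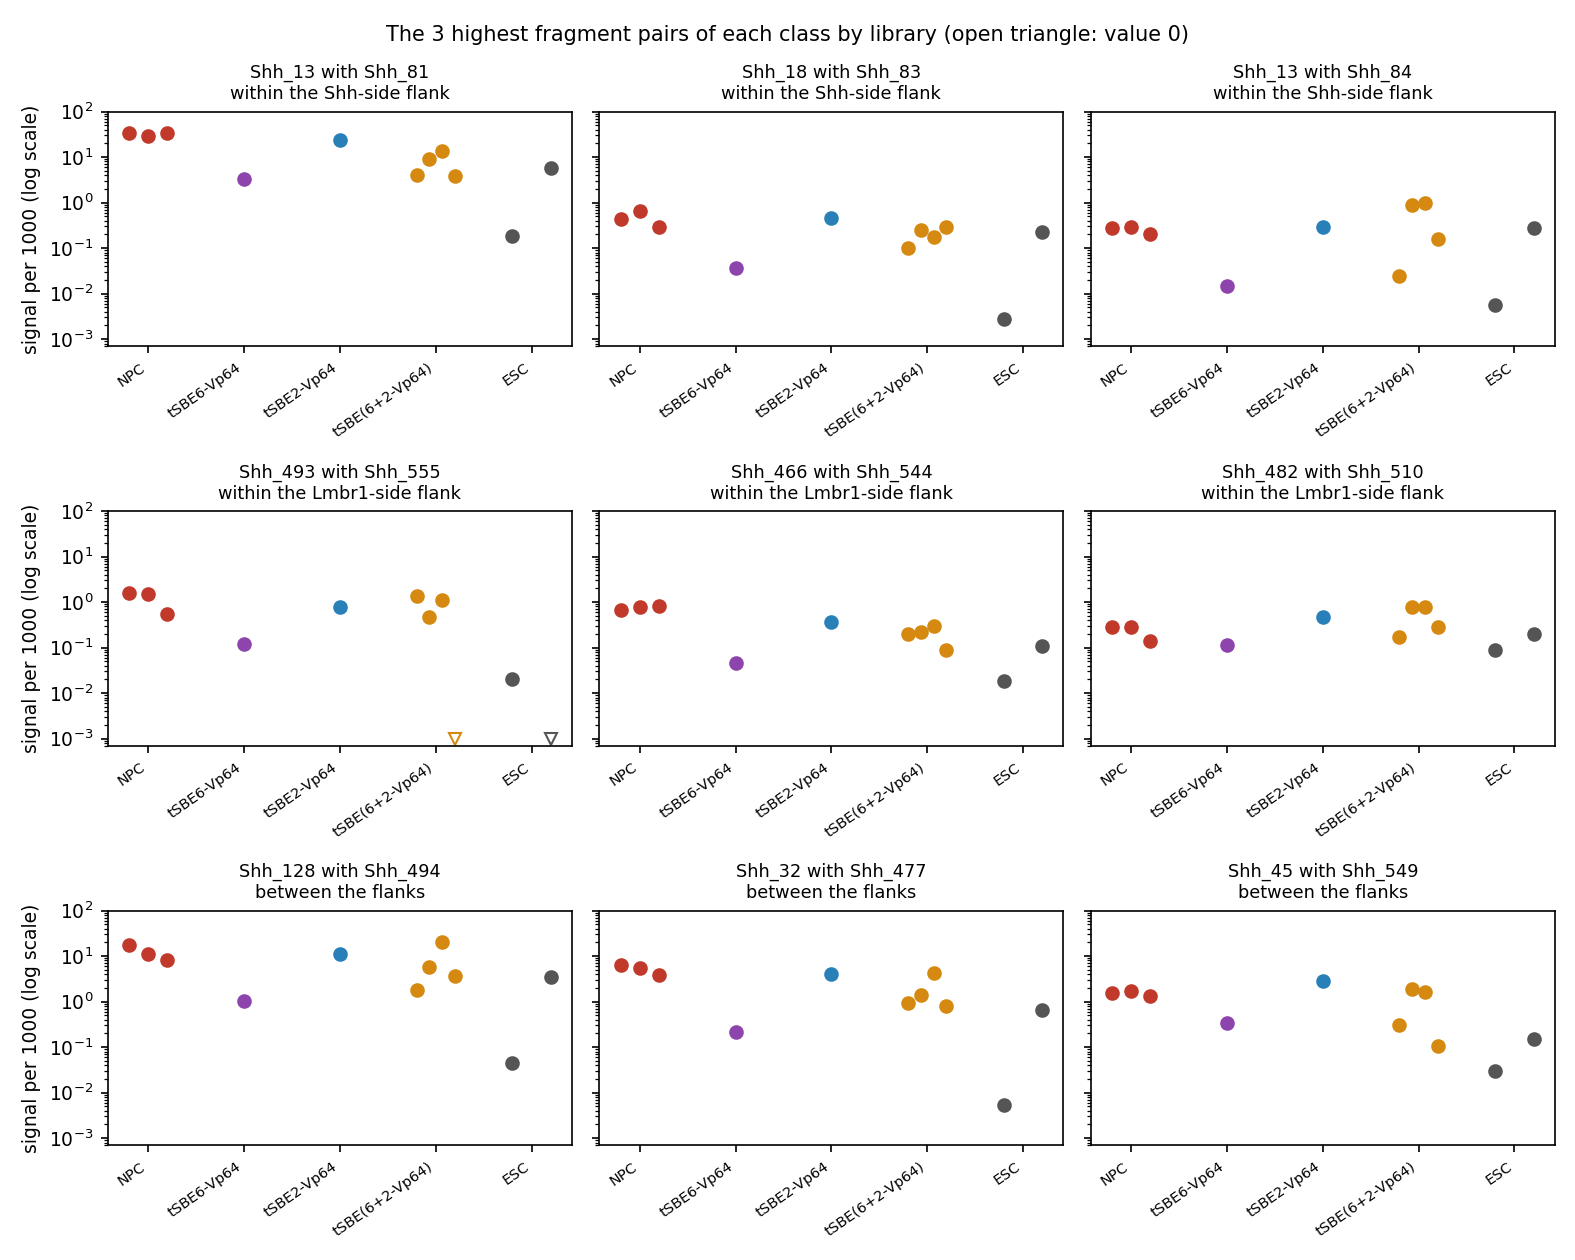
Signal per 1000 (vertical axis, log scale) of the 3 fragment pairs with the highest mean in each class, by library and group; an open triangle marks a value of 0. tSBE2-Vp64 lies above both ESC libraries in all 9 panels, and the NPC replicates do in 7.

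These 9 pairs were picked by their mean over the 5 groups, which favours pairs that are high in some group. Their height and the counts that follow are thus a description only, and the rates of all pairs beside them make no test. NPC exceeded both ESC replicates in 7 of the 9, where 11.5% of all 26616 fragment pairs fitted did so. tSBE2-Vp64 exceeded them in 9 (29.9% of all pairs), tSBE(6+2-Vp64) in 8 (16.9%) and tSBE6-Vp64 in 2 (44.1%). The highest 3 of them (Shh_13 with Shh_81, Shh_128 with Shh_494 and Shh_32 with Shh_477) belong to a set of 21 pairs beyond 50 kb, each of which held more than 0.5% of at least 1 library. The lowest of these 3, Shh_32 with Shh_477, reached 6.40 per 1000, and the highest member outside the set, Shh_134 with Shh_512, reached 2.83. The share of the 3 together was 5.14% and 4.51% in NPC, 0.46% in tSBE6-Vp64, 3.93% in tSBE2-Vp64, 1.16% and 2.32% in tSBE(6+2-Vp64), and 0.023% and 1.00% in ESC. The 18 pairs of the set that are not members, which touch the domain, stood in nearly the same order, with tSBE(6+2-Vp64) replicate 1 and ESC replicate 2 changing places: 40.4% and 36.0% in NPC, 3.22% in tSBE6-Vp64, 27.1% in tSBE2-Vp64, 9.67% and 15.5% in tSBE(6+2-Vp64), and 0.20% and 11.8% in ESC. The part that such pairs play in the class shares was measured only by leaving them out.

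Signal was spread far more evenly in some libraries than in others. The 10 highest pairs of each library between the flanks held 45.4% to 61.2% of the class in NPC, 11.1% in tSBE6-Vp64, 51.0% in tSBE2-Vp64, 7.22% to 64.1% in tSBE(6+2-Vp64), and 4.57% and 30.8% in ESC. Within the Shh-side flank the 10 highest held 65.2% to 71.4% in NPC, 11.5% in tSBE6-Vp64, 55.1% in tSBE2-Vp64, 8.83% to 51.1% in tSBE(6+2-Vp64), and 6.50% and 25.9% in ESC. The Lmbr1-side flank was the most even of the classes in NPC, at 21% to 31.2%, against 9.40% and 15.9% in ESC. In ESC replicate 1 and tSBE6-Vp64 the classes were thus made of many weak pairs, and in NPC and tSBE2-Vp64 of few strong ones.

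**Figure D3:**
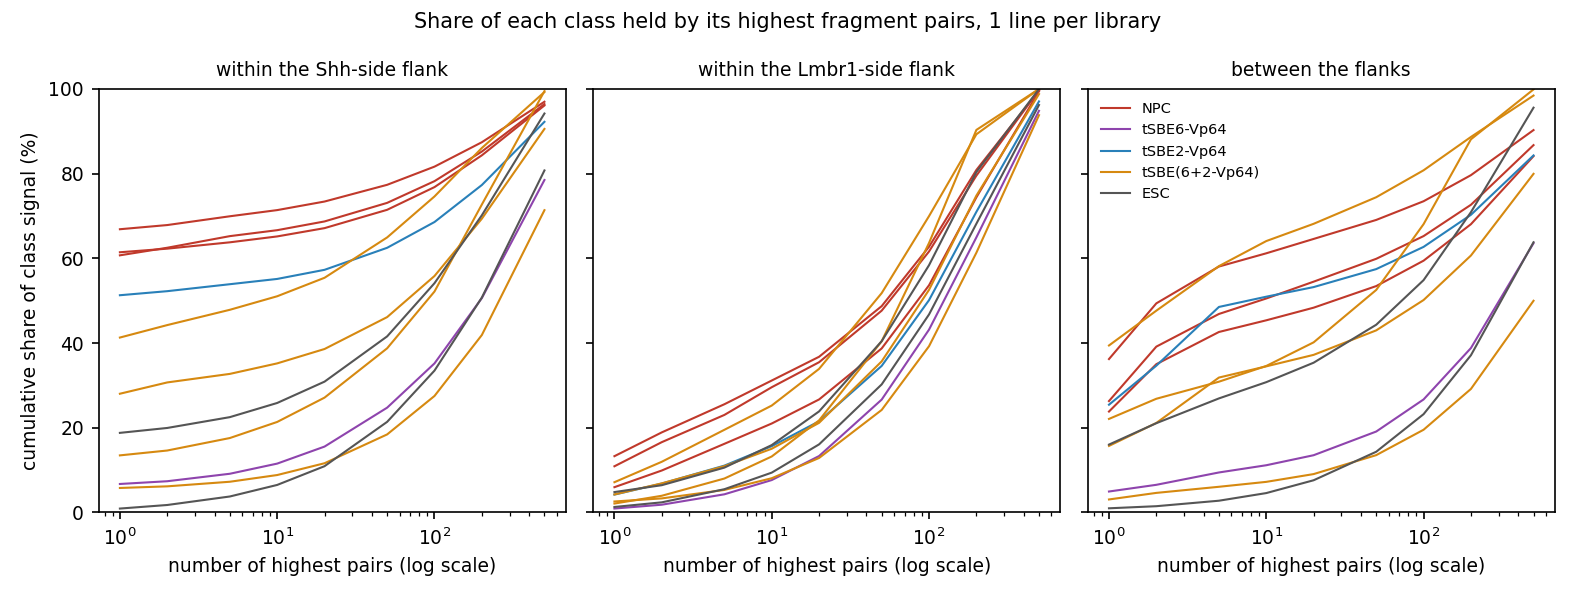
Cumulative share of class signal (percent, vertical axis) against the number of highest fragment pairs counted (horizontal axis, log scale), with a line per library coloured by group. NPC and tSBE2-Vp64 lines start at 51.3% to 66.9% in the Shh-side flank; the tSBE(6+2-Vp64) lines and the 2 ESC lines fan out.

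The typical pair told a different story from the sum. The median member of the Shh-side flank was at 0.0037 and 0.0053 per 1000 in NPC, 0.0232 in tSBE6-Vp64, 0.0090 in tSBE2-Vp64, 0.0266 and 0.0041 in tSBE(6+2-Vp64), and 0.0169 and 0.0032 in ESC. Between the flanks the median was 0.00051 and 0 in NPC, 0.0030 in tSBE6-Vp64, 0.0012 in tSBE2-Vp64, 0.0101 and 0 in tSBE(6+2-Vp64), and 0.0028 and 0 in ESC. No group with 2 replicates lay wholly above or below ESC.

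Inside the Shh-side flank, contacts at 300 to 450 kb were weaker than those at 50 to 100 kb. With the highest pair left out, the mean signal of a Shh-side pair at 50 to 100 kb was 0.0156 and 0.0207 in NPC, 0.0476 in tSBE6-Vp64, 0.0207 in tSBE2-Vp64, 0.0410 and 0.0201 in tSBE(6+2-Vp64), and 0.0398 and 0.0272 in ESC. At 300 to 450 kb it was 0.0089 and 0.0115 in NPC, 0.0234 in tSBE6-Vp64, 0.0098 in tSBE2-Vp64, 0.0272 and 0.0093 in tSBE(6+2-Vp64), and 0.0194 and 0.0091 in ESC. Every replicate was lower at 300 to 450 kb than at 50 to 100 kb, but the decline was not steady. The mean at 200 to 300 kb was above that at 100 to 200 kb in NPC (0.0162 and 0.0169 against 0.0107 and 0.0125), in tSBE2-Vp64 and tSBE(6+2-Vp64) and in ESC replicate 2. Without the 10 highest pairs of the class this held only in NPC (0.0113 and 0.0138 against 0.0106 and 0.0125) and tSBE(6+2-Vp64) replicate 2 (0.0161 against 0.0145). It was then lower in tSBE2-Vp64 (0.0147 against 0.0159), tSBE(6+2-Vp64) replicate 1 (0.0293 against 0.0306) and ESC replicate 2 (0.0153 against 0.0164). At 50 to 100 kb both NPC replicates lay below both ESC replicates, and at 300 to 450 kb NPC and ESC overlapped.

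Between the flanks, the mean without the highest pair was higher at the far end than at the near end in every replicate but tSBE6-Vp64 and ESC replicate 1. At 950 to 1200 kb it was 0.0075 and 0.0061 in NPC, 0.0073 in tSBE6-Vp64, 0.0106 in tSBE2-Vp64, 0.0148 and 0.0064 in tSBE(6+2-Vp64), and 0.0077 and 0.0051 in ESC. In the farthest class, up to 1700 kb, it was 0.0156 and 0.0137 in NPC, 0.0070 in tSBE6-Vp64, 0.0163 in tSBE2-Vp64, 0.0196 and 0.0132 in tSBE(6+2-Vp64), and 0.0063 and 0.0098 in ESC. NPC, tSBE2-Vp64 and tSBE(6+2-Vp64) thus lay above both ESC replicates at the far end and overlapped them or, for tSBE2-Vp64, lay above them at the near end. With the highest pair (Shh_128 with Shh_494) kept, which lies at the near end, the means there were 0.0250 and 0.0157 in NPC, 0.0086 in tSBE6-Vp64, 0.0241 in tSBE2-Vp64, 0.0193 and 0.0208 in tSBE(6+2-Vp64), and 0.0077 and 0.0094 in ESC. NPC, tSBE2-Vp64 and tSBE(6+2-Vp64) were then above both ESC replicates at the near end too, so the contrast between the ends held only without that pair. Without the 10 highest pairs of the class the far-end means were 0.0090 and 0.0082 in NPC, 0.0061 in tSBE6-Vp64, 0.0083 in tSBE2-Vp64, 0.0159 and 0.0076 in tSBE(6+2-Vp64), and 0.0061 and 0.0059 in ESC. The NPC values stayed above ESC there, at a lower level.

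**Figure D4:**
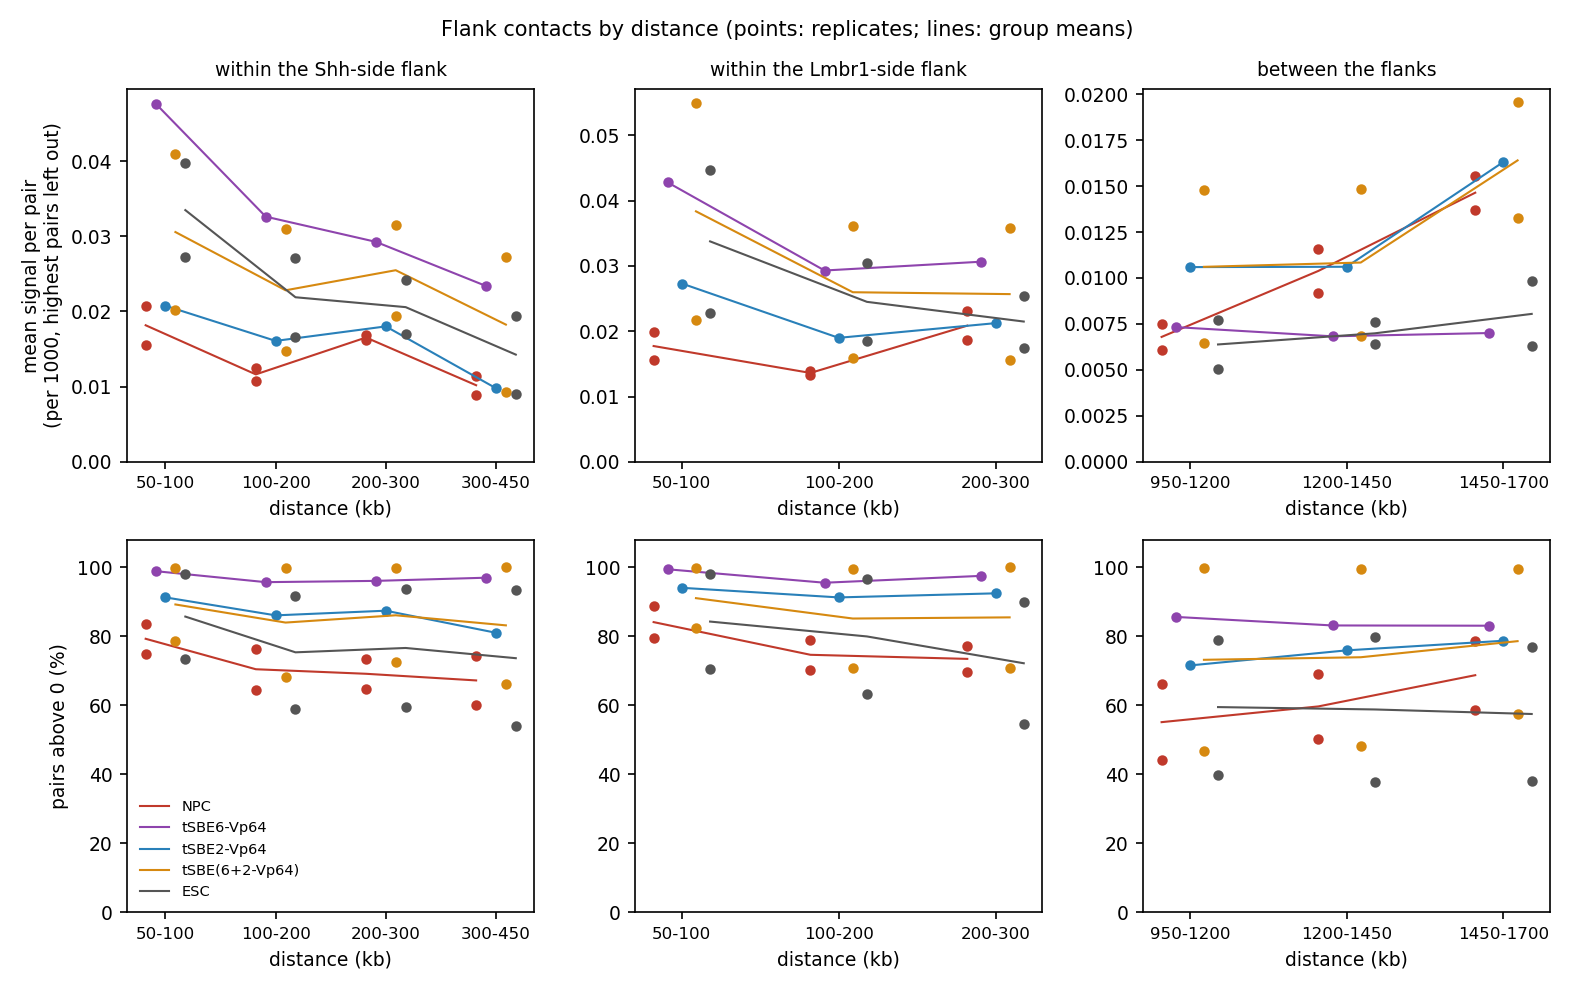
Mean signal per pair without the highest pair of each class (upper row, per 1000) and percent of pairs above 0 (lower row) by distance class in kb, with a point per replicate and a line through the group means. In the Shh-side flank the means are lower at 300 to 450 kb than at 50 to 100 kb; between the flanks NPC, tSBE2-Vp64 and tSBE(6+2-Vp64) lie above both ESC replicates in the farthest class.

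Flank contacts were also set against contacts that touch the domain at equal distance, as the mean log2 ratio over distance classes of 50 kb. For contacts between the flanks over contacts that join a flank to the domain, the ratio was -0.50 and -0.52 in NPC, -0.01 in tSBE6-Vp64, -0.12 in tSBE2-Vp64, -0.12 and -0.73 in tSBE(6+2-Vp64), and 0.08 and -0.42 in ESC. Both NPC replicates lay below both ESC replicates, by 0.34 on average (exact permutation p = 0.333). Without ESC replicate 1 the NPC difference was -0.09 (-0.0854), and without ESC replicate 2 it was -0.59 (-0.588). NPC contacts between the flanks were lower relative to domain contacts of the same span while higher as a share of the library. With medians over pairs above 0 in every replicate in place of means, NPC lay 0.59 above ESC, with values of 0.05 and 0.04 in NPC against 0.37 and -1.46 in ESC, which overlap. The Shh-side flank over the domain interior was at -0.08 and 0.14 in NPC, 0.23 in tSBE6-Vp64, -0.00 in tSBE2-Vp64, 0.19 and 0.08 in tSBE(6+2-Vp64), and 0.09 and -0.14 in ESC. The Lmbr1-side flank was above the domain interior in every replicate, at 0.29 and 0.26 in NPC, 0.11 in tSBE6-Vp64, 0.44 in tSBE2-Vp64, 0.42 and 0.33 in tSBE(6+2-Vp64), and 0.22 and 0.15 in ESC. Its NPC mean was 0.09 above that of ESC and that of tSBE(6+2-Vp64) 0.19 above (exact permutation p = 0.333 each).

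Contacts among the genes of the flanks were then read in windows of 20 kb to either side of each gene. The 7 windows make 21 pairs, and each value is the mean signal per fragment pair, per 1000. Only members enter these values. The other pairs among all 91 window pairs, which touch the domain, also keep fragment pairs up to 50 kb apart, so rates over all 91 are built differently. En2 with Cnpy1 was the strongest on the Shh side in every replicate, and Nom1 with Mnx1 on the Lmbr1 side. They rest on 15 and 12 fragment pairs. Each joins genes next to each other in the order above, as some weaker pairs do, and the part of distance was not tested. En2 encodes a homeobox transcription factor of the midbrain and hindbrain, and Cnpy1 a member of the canopy family that in zebrafish promotes FGF signalling at the same boundary. En2 with Cnpy1 was at 0.0321 and 0.0521 in NPC, 0.0890 in tSBE6-Vp64, 0.0383 in tSBE2-Vp64, 0.0637 and 0.0478 in tSBE(6+2-Vp64), and 0.0891 and 0.0733 in ESC, with all groups but tSBE6-Vp64 below both ESC replicates. Nom1 encodes a nucleolar MIF4G-domain protein and Mnx1 the homeobox factor of motor neurons and pancreas. Nom1 with Mnx1 was at 0.0167 and 0.0261 in NPC, 0.0390 in tSBE6-Vp64, 0.0246 in tSBE2-Vp64, 0.0351 and 0.0219 in tSBE(6+2-Vp64), and 0.0404 and 0.0390 in ESC. NPC, tSBE2-Vp64 and tSBE(6+2-Vp64) lay below both ESC replicates, and tSBE6-Vp64 was level with ESC replicate 2 (log2 difference from ESC -0.02).

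None of the 21 window pairs passed limma in any comparison, where 0% of all 91 window pairs fitted were called in each, and 0 of the 21 in NPC, tSBE6-Vp64 and tSBE2-Vp64 and 1 in tSBE(6+2-Vp64) had an unadjusted p under 0.05. With libraries scaled over pairs more than 50 kb apart instead, 8 of the 21 were called lower in NPC, beside 24 of all 91, and 1, En2 with Mnx1, in tSBE(6+2-Vp64), beside 2. In NPC all 9 window pairs within the flanks had a log2 difference below 0, with medians of -0.95 for the 6 of the Shh side and -0.75 for the 3 of the Lmbr1 side, against -0.15 over all 91 window pairs. Of the 12 pairs between the flanks, 7 lay above 0 and 5 below, with a median of 0.15. In NPC, 11 of the 21 pairs lay below both ESC replicates, beside 30.8% of all window pairs, and 4 above both, beside 17.6%. In tSBE6-Vp64, 15 of 21 lay above 0, with a median of 0.33 beside 0.31 over all window pairs. In tSBE2-Vp64, 13 of 21 lay below 0, with a median of -0.10 beside 0.03, and in tSBE(6+2-Vp64) 10 did, with a median of 0.11 beside 0.20. Above both ESC replicates lay 6 of 21 in tSBE6-Vp64 (45.1% of all window pairs), 5 in tSBE2-Vp64 (30.8%) and 0 in tSBE(6+2-Vp64) (9.89%), and below both 4 (12.1%), 9 (29.7%) and 3 (4.4%).

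With the smallest p in NPC, Insig1 with Cnpy1 was at 0.0121 and 0.0271 in NPC and 0.0545 and 0.0288 in ESC. Insig1 encodes an endoplasmic reticulum protein that holds back sterol synthesis. Its log2 difference was -1.09 (SE 0.66, limma adjusted p = 0.922). Insig1 with Nom1, across the domain, was 0.0118 and 0.0120 in NPC against 0.0090 and 0.0028 in ESC (log2 1.09, SE 0.69), and Insig1 with Rbm33, an RNA-binding protein gene, was 0.0079 and 0.0101 against 0.0266 and 0.0123 (log2 -0.96, SE 0.64), both with a limma adjusted p of 0.922. In tSBE6-Vp64 the smallest p belonged to En2 with Ube3c, Insig1 with En2 and Insig1 with Ube3c, a ubiquitin ligase gene, at log2 differences of 0.90, 0.71 and 0.68 (limma adjusted p = 0.987). In tSBE2-Vp64 they belonged to Cnpy1 with Ube3c at 1.24, Insig1 with Rbm33 at -1.01 and En2 with Cnpy1 at -1.06 (limma adjusted p = 0.982).

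By mean signal, En2 with Mnx1 was the contact between flank genes that stood out in ESC. It was chosen after its values were seen, apart from its place in tSBE(6+2-Vp64), where it had the smallest p. The windows lie on opposite sides of the domain, and both hold a homeobox gene. Their contact was at 0.0089 and 0.0122 in NPC, 0.0132 in tSBE6-Vp64, 0.0099 in tSBE2-Vp64, 0.0087 and 0.0035 in tSBE(6+2-Vp64), and 0.0217 and 0.0141 in ESC. All 4 groups were below both ESC replicates. Among the 12 window pairs between the flanks it ranked 4 and 1 in NPC, 1 in tSBE6-Vp64, 1 in tSBE2-Vp64, 7 and 7 in tSBE(6+2-Vp64), and 1 in both ESC replicates, where the median of the 12 was 0.0064 and 0.0034. The log2 difference was -1.51 in tSBE(6+2-Vp64) (SE 0.67, limma adjusted p = 0.634), -0.70 in NPC, -0.38 in tSBE6-Vp64 and -0.77 in tSBE2-Vp64, and none passed.

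No single fragment pair made up this contact. In ESC the highest of the 35 fragment pairs held 27.2% and 17.9% of it, and the 3 highest 52.4% and 50.2%. By mean over both ESC replicates the highest were Shh_45 (28484053 to 28486216) with Shh_490 (29805363 to 29806188), Shh_46 (28486217 to 28491939) with Shh_493, and Shh_44 (28476584 to 28484052) with Shh_493. In ESC replicate 1 these were at 0.206, 0.0867 and 0.105 per 1000 and ranked 1, 5 and 2 among the 2841 contacts between the flanks, and in ESC replicate 2 at 0.0725, 0.0883 and 0.0678, ranking 28, 18 and 32. Shh_45 with Shh_490 was at 0.0100, 0.0164 and 0.0663 in NPC, 0.100 in tSBE6-Vp64, 0.0448 in tSBE2-Vp64 and 0 to 0.0302 in tSBE(6+2-Vp64). These libraries were all below ESC replicate 1, and only tSBE6-Vp64 exceeded ESC replicate 2. The median of the 35 pairs was 0.0055 and 0 in ESC, and 31 and 16 of the pairs were above 0 there. In tSBE(6+2-Vp64) the median was 0.0065 and 0, with 35 and 14 pairs above 0. It was 0.00053 and 0.0016 in NPC, 0.0025 in tSBE6-Vp64 and 0.00098 in tSBE2-Vp64. The ESC lead thus held for the mean and not for the median.

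**Figure D5:**
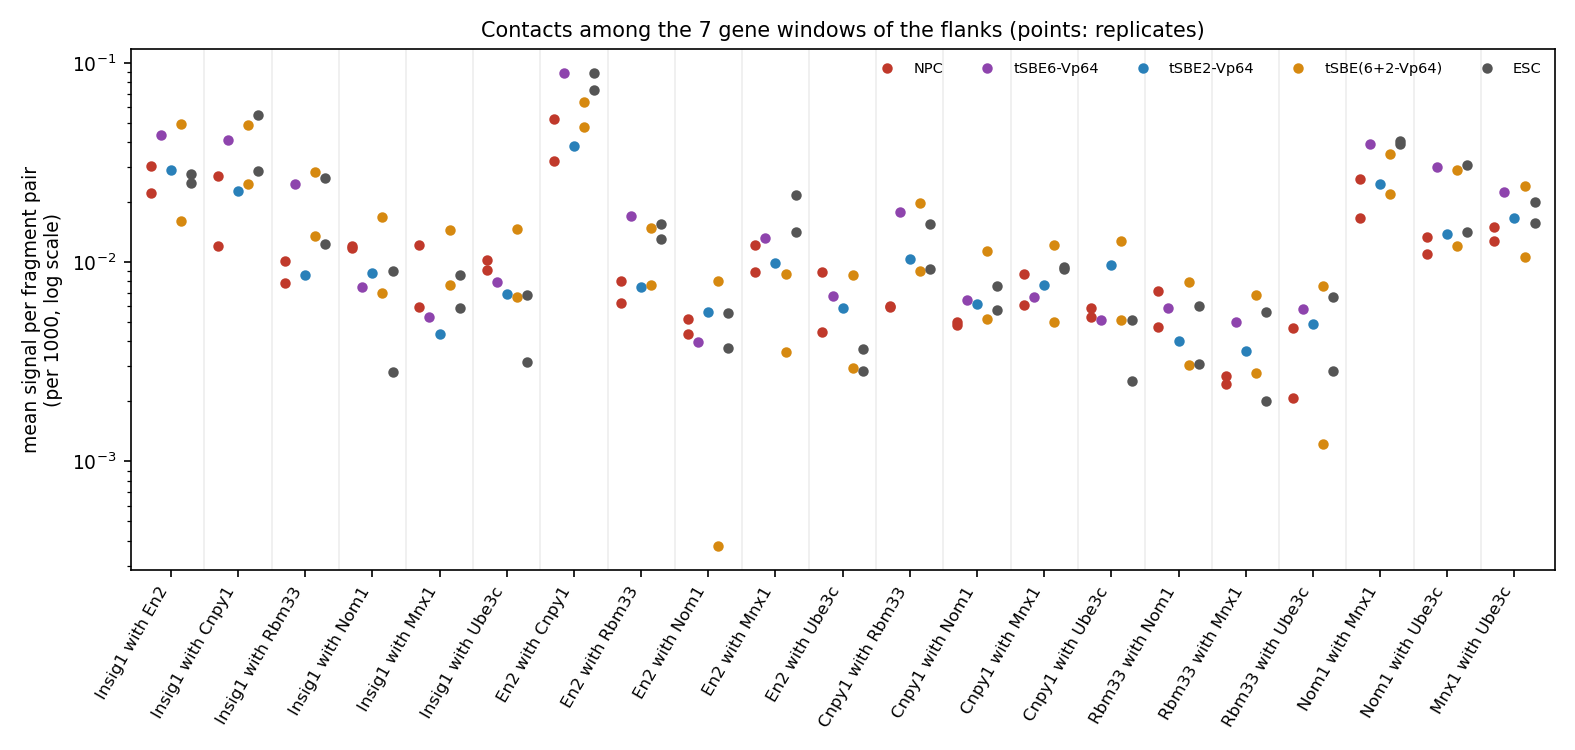
Mean signal per fragment pair (per 1000, vertical axis, log scale) for the 21 pairs of gene windows of the flanks, with a point per replicate and the groups from left to right within each pair. The ESC points of En2 with Mnx1, at 0.0217 and 0.0141, lie above every other point of that pair.

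Few flank contacts passed a test over the whole region. At 20-kb bins, 3605 bin pairs were fitted with limma on log2(value + pseudocount), 684 of them members. In NPC, 0.111% of all bin pairs were called at an adjusted p under 0.05, and 1 member was, a rise. In tSBE(6+2-Vp64), 0.0555% of all were called and again 1 member. In tSBE2-Vp64 (0.0277% of all) and tSBE6-Vp64 (0% of all) no member was. Members with an unadjusted limma p under 0.05 numbered 54 in NPC, 8 in tSBE6-Vp64, 29 in tSBE2-Vp64 and 29 in tSBE(6+2-Vp64). That is 7.89%, 1.17%, 4.24% and 4.24% of members, beside 9.49%, 1.08%, 3.69% and 3.25% of all bin pairs.

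The bin pair that rose was the same in NPC and tSBE(6+2-Vp64), 29800001 to 29820000 with 30000001 to 30020000 in the Lmbr1-side flank. Its mean signal was 0.389 and 0.138 in NPC, 0.0307 in tSBE6-Vp64, 0.195 in tSBE2-Vp64, 0.237 and 0.142 in tSBE(6+2-Vp64), and 0.0075 and 0.0021 in ESC. The log2 difference was 5.57 in NPC (SE 0.73, limma adjusted p = 0.010) and 5.23 in tSBE(6+2-Vp64) (SE 0.73, adjusted p = 0.030). In tSBE2-Vp64 it was 5.32 (SE 0.89, adjusted p = 0.108) and in tSBE6-Vp64 2.68 (SE 0.89, adjusted p = 1). Of its 4 fragment pairs, Shh_493 with Shh_555 held 99.8% of the signal in NPC and 96.8% in tSBE(6+2-Vp64). Without that pair the log2 difference was -1.45 in NPC and 0.05 in tSBE(6+2-Vp64). The call was lost without the tSBE(6+2-Vp64) library that stands apart, with an adjusted p of 0.096 in NPC and 0.280 in tSBE(6+2-Vp64), although the NPC values were the same. It was also lost in NPC without either whole tSBE(6+2-Vp64) replicate, with limma adjusted p of 0.210 and 0.216.

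In tSBE2-Vp64 the next bin pairs by p lay between the flanks. The bins at 28480001 and 29960001 were at 0.171 and 0.138 in NPC, 0.284 in tSBE2-Vp64, and 0.0051 and 0.0192 in ESC (log2 4.71 in tSBE2-Vp64, limma adjusted p = 0.112), and Shh_45 with Shh_549 held 98.3% of the tSBE2-Vp64 value. The bins at 28740001 and 29840001 were at 0.228 in tSBE2-Vp64 against 0.0089 and 0.0117 in ESC (log2 4.38, limma adjusted p = 0.196), and Shh_134 with Shh_512 held 95.5%. Without those fragment pairs the log2 differences were 0.58 and 0.21. In tSBE6-Vp64 the other 2 bin pairs by p, 28440001 with 30000001 and 28300001 with 28480001, rested on 1 fragment pair each and did not pass (limma adjusted p = 1). The first was at 0.0100 in tSBE6-Vp64 and at 0 in both ESC replicates, and the second at 0.0250 in tSBE6-Vp64 and at 0.0044 and 0 in ESC.

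The median log2 difference of member bin pairs was -0.28 in NPC, 0.51 in tSBE6-Vp64, 0.05 in tSBE2-Vp64 and 0.31 in tSBE(6+2-Vp64), beside -0.30, 0.45, -0.04 and 0.24 over all bin pairs. The classes differed within NPC. The median was -0.73 over 240 bin pairs of the Shh-side flank and -0.71 over 87 of the Lmbr1-side flank, but 0.14 over 357 between the flanks. tSBE2-Vp64 had -0.32, -0.26 and 0.33 in the same order of classes, tSBE(6+2-Vp64) 0.11, 0.03 and 0.58, and tSBE6-Vp64 0.74, 0.48 and 0.27. The median difference from ESC was thus higher between the flanks than within either flank in NPC, tSBE2-Vp64 and tSBE(6+2-Vp64), and lower in tSBE6-Vp64. Over single fragment pairs the tSBE6-Vp64 order was reversed, with medians of 1.72 between the flanks, 1.29 on the Shh side and 1.20 on the Lmbr1 side. Between the flanks 83.8% of pairs were above 0 in tSBE6-Vp64, against 79.2% and 38.4% in ESC. These medians thus include differences from 0, whose size depends on the pseudocount. The mean signal per pair there was 0.0074 in tSBE6-Vp64 and 0.0074 and 0.0078 in ESC.

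Counts of bin pairs that did not overlap ESC followed the classes. In NPC, 77 of 357 bin pairs between the flanks lay above both ESC replicates (21.6%) and 56 below (15.7%), beside 13.6% and 30.4% of all bin pairs. Within the Shh-side flank 17 of 240 lay above (7.08%) and 105 below (43.8%), and within the Lmbr1-side flank 5 of 87 lay above (5.75%) and 43 below (49.4%). In tSBE(6+2-Vp64), 97 of 357 bin pairs between the flanks lay above both ESC replicates (27.2%) and 7 below (1.96%), beside 16.7% and 4.13% of all bin pairs. tSBE2-Vp64 had 145 above (40.6%) and 72 below (20.2%) between the flanks, beside 26.7% and 33.6%. tSBE6-Vp64 had 122 above (34.2%) and 81 below (22.7%), beside 45% and 15.6%. Between the flanks the share above ESC thus exceeded that of all bin pairs in NPC, tSBE2-Vp64 and tSBE(6+2-Vp64) and fell short of it in tSBE6-Vp64. All bin pairs cover every distance, also up to 50 kb, while contacts between the flanks span 953 to 1681 kb. The rates are thus not matched for distance, and the part of distance in them was not tested.

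At single fragments no member passed. Of 4970 members, 4490 were above 0 in at least 4 of the 8 replicates and were fitted among 26616 fragment pairs, of which 0.00751% were called in NPC by limma and 0% in the other 3 comparisons. Of the 4490, 933 lay below both ESC replicates in NPC (20.8%, beside 21% of all fragment pairs) and 568 in tSBE6-Vp64 (12.7% beside 13.3%). In tSBE2-Vp64 1040 did (23.2% beside 23.9%) and in tSBE(6+2-Vp64) 203 (4.52% beside 5.78%). Above both lay 527 in NPC (11.7% beside 11.5%) and 1994 in tSBE6-Vp64 (44.4% beside 44.1%). In tSBE2-Vp64 1394 lay above both (31.0% beside 29.9%) and in tSBE(6+2-Vp64) 828 (18.4% beside 16.9%). The 1092 members above 0 in all 8 replicates were 34.9% of the Shh-side flank, 38.6% of the Lmbr1-side flank and 11.3% of the pairs between the flanks. Members with an unadjusted limma p under 0.05 numbered 183 in NPC, 30 in tSBE6-Vp64, 86 in tSBE2-Vp64 and 99 in tSBE(6+2-Vp64). That is 4.08%, 0.668%, 1.92% and 2.20% of members fitted, beside 4.52%, 0.808%, 2.29% and 2.28% of all fragment pairs. Those in NPC were 54 higher and 30 lower between the flanks, 11 higher and 50 lower in the Shh-side flank, and 9 higher and 29 lower in the Lmbr1-side flank. In tSBE(6+2-Vp64) 98 of the 99 were higher, beside 559 of 607 over all fragment pairs.

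The smallest p in NPC belonged to Shh_45 with Shh_549, whose values are given above, at a log2 difference of 4.42 (SE 0.70, limma adjusted p = 0.207). Shh_7 (28325862 to 28331585) with Shh_84 (28593412 to 28595934) followed, at 0.670 and 0.461 in NPC, 0.0345 in tSBE6-Vp64, 0.288 in tSBE2-Vp64, 0.128 and 0.248 in tSBE(6+2-Vp64), and 0.0166 and 0.0158 in ESC (log2 5.10 in NPC, SE 0.84, limma adjusted p = 0.211). This contact runs parallel to Shh_13 with Shh_81 a few fragments away. Shh_134 (28748046 to 28750565) with Shh_512 (29855303 to 29859544) had the smallest p in both tSBE2-Vp64 and tSBE(6+2-Vp64). It was at 1.33 and 0.182 in NPC, 0.280 in tSBE6-Vp64, 2.83 in tSBE2-Vp64, 1.14 and 1.07 in tSBE(6+2-Vp64), and 0.0101 and 0.0293 in ESC. The log2 differences were 7.36 in tSBE2-Vp64 and 6.00 in tSBE(6+2-Vp64), with limma adjusted p of 0.986 and 0.803. Shh_491 (29806189 to 29807449) with Shh_549 was at 0 in both ESC replicates and at 0.0530 and 0.0064 in NPC, 0.0499 in tSBE6-Vp64, 0.196 in tSBE2-Vp64, and 0.186 and 0.109 in tSBE(6+2-Vp64). All groups were above ESC there, and no fold is given against 0. In tSBE6-Vp64, Shh_7 with Shh_513 (29859545 to 29863829) was at 2.3e-05 against 0.0220 and 0.0502 in ESC (limma adjusted p = 1). Shh_7, Shh_13, Shh_84, Shh_493 and Shh_549 each occur in several of the pairs named, so these contacts are not independent of each other.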

How the data were processed

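The deposited values are 5C signal for pairs of HindIII fragments on chromosome 5 (mm9, per the submitters' processing notes). For the aligner and the counting, steps and versions were not given in the sources used. Read from the values, the deposited signal appears to be reads of a pair per 1000 reads of a library, and low values in each library were whole multiples of 1 step (tolerance 0.05, values under 20 steps), from which depth was estimated. Of 12 library files, 1 repeated another and was counted once, and 4 deposited averages were not used. There were 0 sample columns left unused.

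Each library was rescaled to 1000 over the 341 fragments shared by all files, and technical replicates were averaged into 8 biological replicates. Members are pairs over 50 kb apart with both midpoints outside the domain. Class shares were compared by exact two-sided permutation tests. Bin pairs of 20 kb (above 0 in at least 2 replicates), fragment pairs (at least 4) and gene windows were fitted with limma 3.58.1 in R 4.3.3 over all 5 groups. The fit was on log2(value + pseudocount), with pseudocounts of 8.2e-04 (bins and windows) and 4.52e-05 (fragment pairs). A pseudocount understates changes between weak values above 0, and the size of a change from 0 depends on it. The fit left 3 residual degrees of freedom. As limma shares spread across rows, the median total was 11.1 for bin pairs, 9.06 for fragment pairs and 273 for windows. Window p-values thus rest on a spread pooled over all 91 window pairs, many of which share a window. The limma p-values were adjusted by Benjamini-Hochberg over the whole table. It was tested on simulated data.

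Gene windows reach 20 kb to either side of approximate mm9 gene positions set from knowledge of the locus. Named were the 3 highest pairs of each class by mean over groups, the bin pairs past the threshold or else those with the smallest p, up to 3 a comparison, and the 2 fragment pairs and 3 window pairs with the smallest p. The members and lists were chosen with earlier results of these data known. Replicate numbers were not taken to pair the samples. Alternatives covered scaling, strong pairs, distance, bin size, pseudocount, filters, the variance trend and left-out libraries. Leaving out the highest pair of each class, medians over pairs above 0 in every replicate, and bin pairs without the tSBE(6+2-Vp64) library that stands apart were chosen after seeing the data.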

Additional observations from a re-analysis of the deposited data

Results flagged for a closer look

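Among the 4 tSBE(6+2-Vp64) libraries, that of replicate 1 and technical replicate 1 lay far from the other 3 in its share of contacts within the Shh-side flank, at 7.01% against 2.91% to 3.32%. The same library held 5.14% within the Lmbr1-side flank, against 1.34% to 1.79% in the others. In each case the gap to the nearest library, divided by the range of the 4, was above Dixon's 95% critical value for 4 samples. These were 2 of 19 quantities examined in this way, where chance gives about 1 in 20. This library also had 99.6% of members above 0, and the part of this spread in the shares was not tested.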

How the results depend on the processing

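Class differences below are percentage points against ESC. Scaled over pairs more than 50 kb apart, the Shh-side difference was -1.84 in NPC, -1.62 in tSBE2-Vp64 and -1.44 in tSBE(6+2-Vp64), the Lmbr1-side difference -1.38 in tSBE(6+2-Vp64), and that between the flanks -0.05 (-0.0518) in NPC, all of opposite sign to the values reported. Without the pairs over 0.5% of a library it was -0.0204 in NPC and -0.0591 in tSBE2-Vp64 (Shh side) and 0.0771 in NPC and 0.366 in tSBE2-Vp64 (Lmbr1 side). Without the highest pair of each class it was -1.28 in NPC and -0.905 in tSBE2-Vp64 (Shh side) and 0.00648 in tSBE6-Vp64 (between the flanks). Leaving out 1 replicate or library gave -0.943 to 0.267 in tSBE2-Vp64, -0.0556 to 1.15 in tSBE6-Vp64 and -0.696 to 1.31 in tSBE(6+2-Vp64) on the Lmbr1 side, and -0.382 to 1.66 in tSBE(6+2-Vp64) on the Shh side. Differences between the flanks kept their sign under every such omission. The cause was not tested beyond these omissions.

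The matched-distance difference changed sign without the pairs over 0.5% of a library in tSBE2-Vp64 between the flanks (-0.0625). With the domain edges moved outward by 40 kb it was -0.100 in tSBE2-Vp64 on the Shh side, -0.209 in NPC on the Lmbr1 side and -0.141 in tSBE2-Vp64 between the flanks. With medians over pairs above 0 in every replicate it was -0.0191 in NPC on the Lmbr1 side and 0.588 in NPC between the flanks. Leaving out 1 replicate gave -0.061 to 0.167 in NPC and -0.0938 to 0.135 in tSBE2-Vp64 on the Shh side, and between the flanks -0.0909 to 0.412 in tSBE6-Vp64, -0.202 to 0.301 in tSBE2-Vp64 and -0.561 to 0.0526 in tSBE(6+2-Vp64).

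Member bin pairs called by limma numbered 1 in NPC, 0 in tSBE6-Vp64, 0 in tSBE2-Vp64 and 1 in tSBE(6+2-Vp64). They were 0 in both NPC and tSBE(6+2-Vp64) with scaling over 50 kb, with 10-kb bins, with means of log2 values, without the variance trend and without the tSBE(6+2-Vp64) library that stands apart, and 0 in tSBE(6+2-Vp64) with the repeated NPC file kept. Without the pairs over 0.5% they were 2 in NPC and 1 in tSBE2-Vp64. With a pseudocount 10 times larger they were 6 in NPC and 2 in tSBE2-Vp64, with 40-kb bins 7, 5 and 3 in NPC, tSBE2-Vp64 and tSBE(6+2-Vp64), and among bin pairs above 0 in all 8 replicates 9, 6 and 6. Leaving out 1 replicate gave 0 to 17 in NPC, 0 to 10 in tSBE6-Vp64, 0 to 7 in tSBE2-Vp64 and 0 to 17 in tSBE(6+2-Vp64), highest in each without ESC replicate 1, and 0 to 2, 0 to 1 and 0 to 1 fragment pairs in NPC, tSBE2-Vp64 and tSBE(6+2-Vp64). Window pairs called were 8 in NPC and 1 in tSBE(6+2-Vp64) with scaling over 50 kb.

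Over 3605 bin pairs same-numbered replicates deviated together for tSBE(6+2-Vp64) with ESC (Pearson's r of 0.218) but not for NPC with tSBE(6+2-Vp64) (-0.0027) or NPC with ESC (-0.0304), so the numbers were not taken to pair the samples. With the replicate block limma called 7 member bin pairs in NPC and 4 in tSBE2-Vp64.

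Named fragment pairs changed sign (log2) as follows. With scaling over 50 kb, Shh_482 with Shh_510 was -0.33 in NPC and Shh_466 with Shh_544 -0.11 in tSBE6-Vp64. Without the pairs over 0.5%, Shh_466 with Shh_544 was -0.0024 in tSBE6-Vp64. Leaving out 1 replicate gave, in NPC, -0.22 to 5.45 for Shh_13 with Shh_84 and -0.04 (-0.0385) to 1.13 for Shh_482 with Shh_510. In tSBE6-Vp64 it gave -0.78 to 4.21 for Shh_13 with Shh_81, -2.68 to 3.67 for Shh_18 with Shh_83, -4.24 to 1.43 for Shh_13 with Shh_84, -1.24 to 1.33 for Shh_466 with Shh_544, -0.86 to 0.31 for Shh_482 with Shh_510, -1.78 to 4.50 for Shh_128 with Shh_494 and -1.63 to 5.33 for Shh_32 with Shh_477. In tSBE(6+2-Vp64) it gave -0.17 to 6.17 for Shh_18 with Shh_83.

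With 2 or 1 replicates a group the smallest exact p was 0.333. The planned count test on recovered reads was not run, since the check of units did not accept the deposited values as whole reads recovered.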
